A study of Mus musculus with 6 samples.

Results

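The solute carrier genes described here encode membrane proteins that move amino acids, sugars, ions, metals, vitamins, nucleosides and other small molecules into cells, out of cells or between a cell's compartments. The members were the rows of the deposited table whose gene symbol begins with Slc, a family number and a letter, or with Slco and a number. Left out by the rule were the mitochondrial carriers of family 25 and Slc2a1, Slc2a3, Slc16a1, Slc16a3, Slc19a1 and Slc6a4. This gave 175 members in 46 families, out of 221 rows with a solute carrier name and 12161 genes in all. Expression had been measured by RNA sequencing in LSK cells, the lineage-negative, Sca-1-positive, c-Kit-positive fraction of bone marrow that holds stem and early progenitor cells, from wild-type C57BL/6 mice. The cells had been infected with the retrovirus MIG, which carries GFP alone and served as control, or with MIG-Hhex, which carries the homeobox transcription factor Hhex as well. Both groups were kept for 2 days in a medium with IL-3, IL-6, SCF and Flt-3 ligand, and GFP-positive cells were then sorted for RNA. There were 3 libraries per group, named WT3, WT691 and WT703 in each, which the study calls biological replicates. No source used here gives the age of the mice.

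Most carriers of this superfamily are driven by the gradient of the substrate itself or of a second ion, so that the sodium pump and the proton pumps set the force behind them. Family members often differ in where they sit (surface, lysosome, Golgi, endoplasmic reticulum) as much as in what they carry. In blood-forming cells they are known for feeding amino acids to growing cells, for handling iron and heme in red cell precursors and for loading granules and clearing phagosomes in myeloid cells.

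The label LSK was checked against marker genes. Kit and Cd34 had similar values in all 6 libraries, but Ly6a, which encodes Sca-1, read 3.18, 6.25 and 6.08 in MIG and 3.55, 6.21 and 5.89 in MIG-Hhex, so both WT3 libraries stood apart from the rest. Of 10 genes of LSK cells and progenitors 0 rose and 1, Meis1, fell in MIG-Hhex cells, and their summed linear level was 423 to 508 in MIG and 344 to 448 in MIG-Hhex. Markers of other blood cells also differed between the groups. For comparison, 18.0% of all genes were called, 9.44% higher and 8.52% lower, and no list was tested against these shares. Of 14 neutrophil genes 7 were called higher and 2 lower, of 14 monocyte, macrophage and dendritic cell genes 4 and 3, of 8 mast cell and basophil genes 1 and 4, of 9 eosinophil genes 2 and 0, of 11 megakaryocyte genes 4 and 1, of 12 erythroid genes 4 and 2, and of 4 lymphoid genes 0 and 1. The linear levels summed over a list overlapped between groups for the neutrophil list (7384 to 9851 in MIG, 6293 to 9640 in MIG-Hhex), the monocyte list (398 to 1071 and 384 to 1337), the mast cell list (221 to 473 and 188 to 319), the eosinophil list (8.53 to 87.3 and 63.7 to 123), the erythroid list (214 to 290 and 218 to 294) and the lymphoid list (78.5 to 163 and 51.8 to 131). For the megakaryocyte list they did not (125 to 157 and 217 to 286). Cd9 had the highest value of that list in every library and weighs most in its sum (log2 fold change 1.46). Pf4, next to it in level in most MIG libraries, was the gene called lower (-0.94). The sum without Cd9 was not computed, so it does not stand for the list as a whole. Every marker counted here had a value in each library. Ly6g, Ccr3, Gp6, Alas2 and Hbb-bt, among others of these lists, are not among the table's rows. The part these cell types play in the carrier results was not tested, and in bulk RNA fewer cells of a type and less RNA per cell cannot be told apart. Hhex itself read 5.18, 5.05 and 5.13 on the deposited log2 scale in the MIG libraries and 7.61, 9.34 and 9.06 in the MIG-Hhex libraries, whose reads can include the vector's own transcripts.

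Of the 175 members, 25 were higher and 15 lower in MIG-Hhex cells, and 135 did not pass the threshold (limma, adjusted p under 0.05 over all 12161 genes). That is 22.9% of the members, 14.3% higher and 8.57% lower. Over all genes 18.0% were called, 9.44% higher and 8.52% lower. The share of lower calls was near that of all genes. The share of higher calls was above it, a difference for which no test was made. The median log2 fold change was 0.04 over the members and -0.02 over all genes. Changes of at least 1 on the log2 scale with a call were found in 13 members, 10 higher and 3 lower, or 7.43%, against 5.10% of all genes. The 3 libraries of one group lay wholly above or below those of the other for 46 members, or 26.3%, against 21.2% of all genes. All 40 called members moved the same way in each of the 3 library pairs of the same name, and in 24 of them the groups did not overlap. The same direction in each pair was also found for all 2184 called genes of the table, so it sets no member apart. The groups did not overlap in 1492 of these 2184.

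The number of calls fell whichever library was left out. Such a run also leaves fewer libraries for the fit, and how much of the fall comes from that was not tested. When each library or each pair of libraries was left out in turn, 6 to 20 members were called higher and 3 to 9 lower, the fewest without the pair WT703 and the most without the MIG library WT691. Over all genes 467 of 2184 calls held in all 9 such runs. Of the 40 member calls, 9 did. These 9 were Slc15a3, Slc36a2, Slc11a1, Slc37a3, Slc9a3r2 and Slc43a2, which rose, and Slc28a2, Slco3a1 and Slc39a6, which fell. The pair WT3 came from another flow cell than the other 4 libraries, and flow cell was a term of the fit. Without that term 6 calls were left, Slc15a3, Slc11a1, Slc37a3, Slc28a2, Slco3a1 and Slc39a6. Within the flow cell of the 4 libraries alone, which is the run without the pair WT3, 13 members were called higher and 7 lower. With either WT3 library left out, the other is alone in its flow cell and adds nothing to the vector's estimate. Those runs therefore repeat the log2 fold changes of the run without the pair, and the 9 runs are not 9 separate checks.

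**Figure D1:**
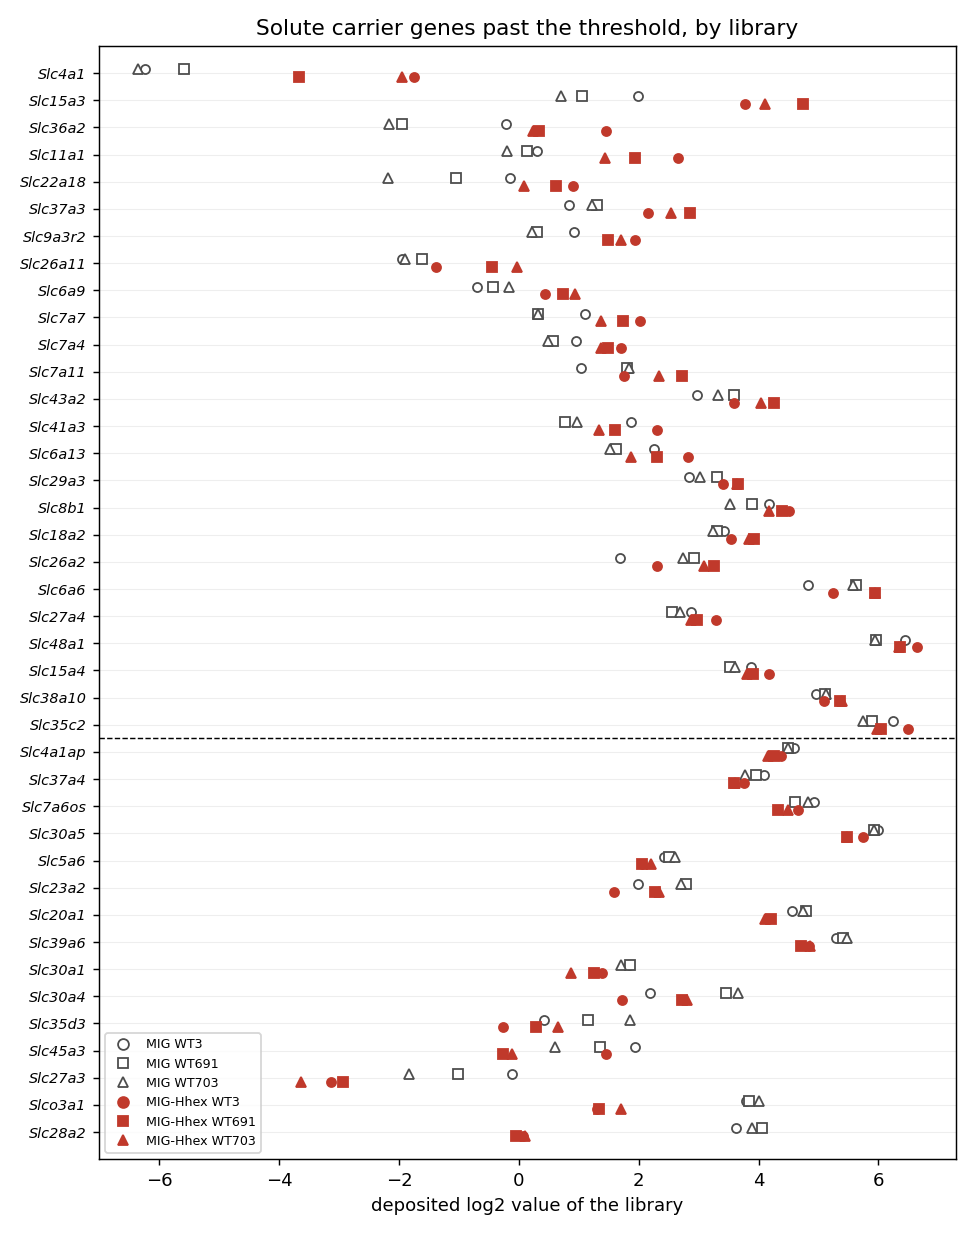
Deposited log2 values (horizontal axis) of the 40 called members in each library, ordered by log2 fold change, with rises above the dashed line and falls below it; open symbols are MIG and filled symbols MIG-Hhex, and the symbol's shape gives the library's name. The MIG-Hhex libraries of Slc28a2 and Slco3a1 lie far to the left of the MIG libraries, while for 16 of the 40 genes, Slc38a10 among them, the groups overlap and only the pairs separate.

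By substrate, the amino acid and peptide carriers gave the highest number of rises. Of 33 members in this class 10 rose and 0 fell, or 30.3% higher, beside 9.44% of all genes called higher. With the library name as a block, Slc7a2, a cationic amino acid carrier, was also called lower (log2 fold change -1.27, limma adjusted p = 0.0120 with the block and 0.134 without). In the same fit Slc36a1, Slc16a10 and Slc32a1 were called higher. Slc32a1 was very low, at -2.44, -4.88 and -5.65 in MIG. Its log2 fold change was 1.88, and 0.22 with 1 added to linear values and no block. The class median log2 fold change was 0.10, as most of the other 23 lay near 0. The metal and heme carriers (28 members) gave 3 rises and 4 falls, the carriers of inorganic ions and protons (28) 4 and 1, those of carboxylates, vitamins and lipids (25) 1 and 3, and those of nucleotide sugars and acetyl-CoA (23) 1 and 1. Carriers of organic ions, amines and vesicular cargo (17) gave 3 and 1, sugar carriers (12) 1 and 2, and nucleoside carriers (4) 1 and 1. Another 5 members bear the name but are not carriers themselves, and gave 1 and 2. The block kept all 40 calls and added 13, of which 8 were higher and 5 lower.

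**Figure D2:**
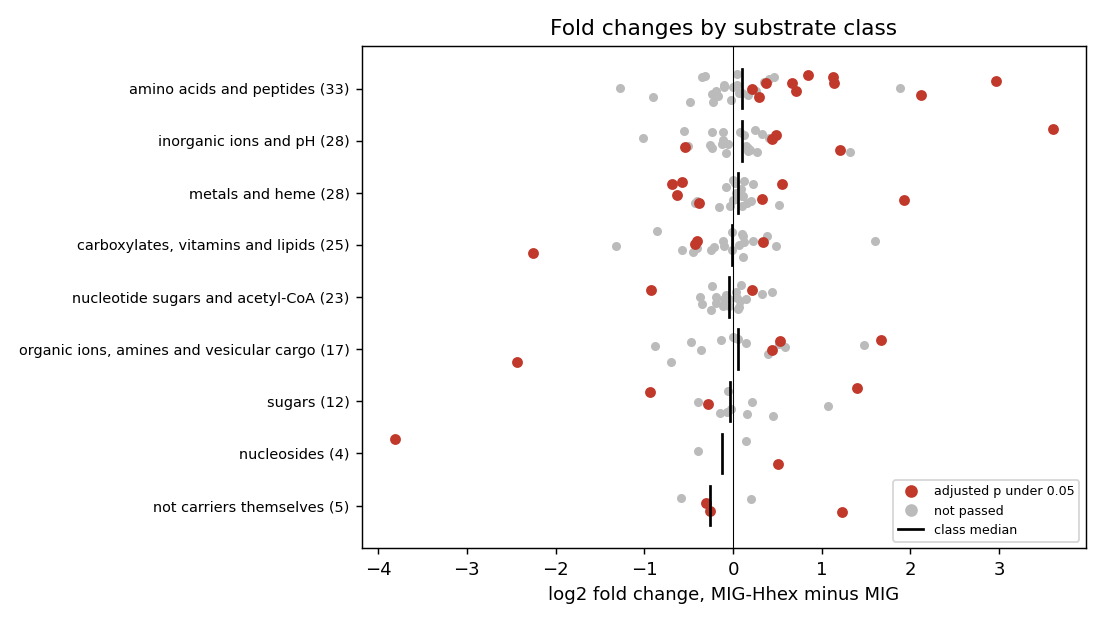
Log2 fold change of each member (horizontal axis, MIG-Hhex minus MIG) by substrate class, with the number of members in brackets; red points passed the threshold, grey points did not, and the black bar is the class median. All 10 red points of the amino acid and peptide class lie above 0, and the class medians lie between -0.26 and 0.10.

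In the amino acid and peptide class Slc15a3, Slc36a2, Slc6a9 and Slc7a7 rose by at least 1 on the log2 scale. Slc15a3, a lysosomal carrier of histidine and small peptides, read 1.98, 1.05 and 0.70 in the MIG libraries WT3, WT691 and WT703 and 3.77, 4.73 and 4.10 in the MIG-Hhex libraries of the same names. The lowest MIG-Hhex library lay well above the highest MIG library, and the mean went from 1.24 ± 0.66 to 4.20 ± 0.49 (SD, n = 3 each). It was the second highest rise of all members (log2 fold change 2.96 with an SE of 0.37, limma adjusted p = 0.00483), about 7.79-fold, and adjusted p stayed at or below 0.045 in the 9 leave-out runs. The gene lies at chr19:10842544-10857915 (GRCm38), and 94 bases of its exons overlap those of Tmem132a on the other strand, which was also called higher (log2 fold change 1.80, limma adjusted p = 0.0085). No source used here says whether the authors counted by strand, so reads from that overlap cannot be assigned. Its lysosomal relative Slc15a4 rose far less (log2 fold change 0.30 with an SE of 0.065, limma adjusted p = 0.0268), with overlapping groups, and with the GC trend removed its adjusted p was 0.179.

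Slc36a2, a proton-coupled carrier of glycine, alanine and proline, read -0.21, -1.95 and -2.16 in MIG and 1.45, 0.34 and 0.24 in MIG-Hhex. Both WT3 libraries read higher than the others of their group, but the groups did not overlap (log2 fold change 2.12 with an SE of 0.24, limma adjusted p = 0.00346). Its neighbour Slc36a1, the amino acid exporter of the lysosome, lies 19222 bases away on chromosome 11 and did not pass (log2 fold change 0.41, limma adjusted p = 0.0561, and 0.0263 with the block). Slc6a9, the glycine carrier known for its need in hemoglobin synthesis, read -0.70, -0.43 and -0.17 in MIG and 0.44, 0.74 and 0.94 in MIG-Hhex. The groups were apart (log2 fold change 1.14 with an SE of 0.18, limma adjusted p = 0.0107), and the call held in 7 of the 9 leave-out runs. Of the erythroid markers, Hba-a1, Hba-a2, Gata1 and Klf1 were called higher and Car1 and Tfrc lower, and their part in this result was not tested.

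Among the exchangers, Slc7a7, the light chain that releases arginine and lysine, read 1.11, 0.32 and 0.33 in MIG and 2.02, 1.74 and 1.37 in MIG-Hhex (log2 fold change 1.13 with an SE of 0.16, limma adjusted p = 0.00745). WT3 was the highest library in each group, with no overlap between groups, and 232 bases of the Slc7a7 exons overlap Oxa1l, which did not pass. Slc7a11, the cystine importer that feeds glutathione synthesis, rose by 0.71 (SE 0.13, limma adjusted p = 0.016), but its groups overlapped and the call held in 2 of 9 leave-out runs. Slc43a2, a facilitated carrier of leucine and other large neutral amino acids, read 2.97, 3.58 and 3.33 in MIG and 3.59, 4.26 and 4.03 in MIG-Hhex. The groups did not overlap, although WT691 of MIG and WT3 of MIG-Hhex almost met (log2 fold change 0.67 with an SE of 0.099, limma adjusted p = 0.00842), and the call held in all 9 runs. Slc7a4, a cationic carrier relative whose substrate is not settled, rose by 0.85 (SE 0.13, limma adjusted p = 0.0100). Slc6a6, the taurine carrier, rose by 0.37 with a similar step in each pair (SE 0.050, limma adjusted p = 0.00581), although WT3 was low in both groups and the groups overlapped. Slc38a10, a neutral amino acid carrier, gave 0.22 (limma adjusted p = 0.0361), and 0.02 with the GC trend removed.

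The carriers that bring most amino acids into growing cells did not pass. Slc7a5, the light chain of the main leucine importer, had the highest mean level of all members, with 7.06, 7.15 and 7.19 in MIG and 7.36, 7.28 and 7.26 in MIG-Hhex. Its log2 fold change was 0.17 (SE 0.059, limma adjusted p = 0.0999), and -0.002 with the GC trend removed. Its heavy chain Slc3a2 followed in level, with means of 6.81 ± 0.15 and 6.92 ± 0.05 (SD, n = 3, limma adjusted p = 0.254). The glutamine importers did not pass either, with 0.00 (SE 0.049) for Slc1a5, 0.04 (SE 0.047) for Slc38a1 and -0.10 (SE 0.048) for Slc38a2, and with the GC trend removed -0.17, 0.10 and 0.03 (limma adjusted p = 0.0518 for Slc1a5). The arginine carrier Slc7a1 gave -0.03 (SE 0.11). Slc15a2, the peptide carrier of the cell surface, varied so much between libraries that no change could be read (log2 fold change -0.32, SE 2.06).

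**Figure D3:**
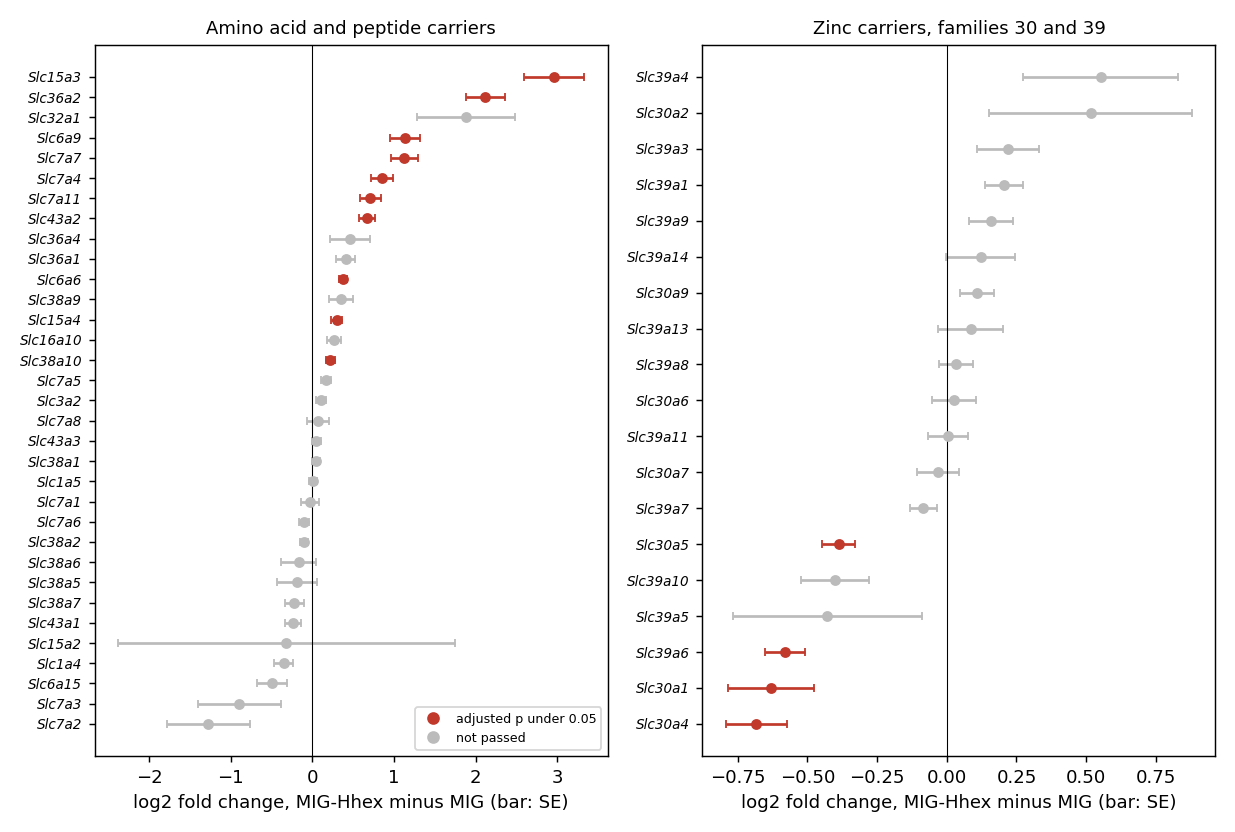
Log2 fold change with its standard error (horizontal axis, MIG-Hhex minus MIG) of the 33 amino acid and peptide carriers, left, and the 19 zinc carriers, right; red passed the threshold and grey did not. The red points lie above 0 in the left panel and below 0 in the right one, and the horizontal scales differ between panels.

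Zinc is exported or moved into vesicles by family 30 and brought to the cytosol by family 39, and of these 19 members 0 rose and 4 fell, beside 8.52% of all genes called lower. With the block Slc39a10 was also called lower and Slc39a1 higher, and with the GC trend removed Slc39a7 lower and Slc30a9 higher. Slc30a1, the zinc exporter of the cell surface, Slc30a4 and Slc30a5, which carry zinc into vesicles and the early secretory pathway, and Slc39a6, an importer, were the 4. The other 11 members of family 39 did not pass, among them Slc39a10 (log2 fold change -0.40 with an SE of 0.12, limma adjusted p = 0.068, and 0.0144 with the block), the closest relative of Slc39a6, and Slc39a7, the zinc gate of the endoplasmic reticulum and the zinc carrier with the highest level (means 6.38 ± 0.12 and 6.29 ± 0.13, SD, n = 3). With the GC trend removed the log2 fold change of Slc39a7 was -0.28 (limma adjusted p = 0.0141).

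Because cells sense zinc through the factor MTF1, which binds metal response elements, the promoters of the 3 exporters that fell are shown. Each runs from 250 bases before to 50 bases after a start site listed for the gene (RefSeq, GRCm38.p6), 5′ to 3′ on the gene's strand. The RefSeq genes Slc30a1 and Slc30a5 begin upstream of the sites used, at chr1:191906697 and chr13:100833480. Capitals mark each match, on either strand, to the core of the metal response element, searched as TGCGCNC and TGCACNC.
Slc30a1 promoter, chr1:191906531-191906830, plus strand: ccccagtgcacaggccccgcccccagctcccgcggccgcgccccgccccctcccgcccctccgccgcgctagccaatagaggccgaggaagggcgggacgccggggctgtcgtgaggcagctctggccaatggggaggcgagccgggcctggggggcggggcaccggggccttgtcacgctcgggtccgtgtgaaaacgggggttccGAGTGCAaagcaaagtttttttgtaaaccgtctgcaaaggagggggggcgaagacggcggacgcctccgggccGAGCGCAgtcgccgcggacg
Slc30a4 promoter, chr2:122702614-122702913, minus strand: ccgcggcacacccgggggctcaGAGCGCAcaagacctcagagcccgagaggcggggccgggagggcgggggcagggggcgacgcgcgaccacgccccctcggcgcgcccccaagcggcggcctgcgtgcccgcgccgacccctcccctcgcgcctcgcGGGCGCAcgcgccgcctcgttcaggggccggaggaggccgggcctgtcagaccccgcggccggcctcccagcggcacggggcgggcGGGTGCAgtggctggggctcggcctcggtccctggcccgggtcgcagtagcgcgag
Slc30a5 promoter, chr13:100833378-100833677, minus strand: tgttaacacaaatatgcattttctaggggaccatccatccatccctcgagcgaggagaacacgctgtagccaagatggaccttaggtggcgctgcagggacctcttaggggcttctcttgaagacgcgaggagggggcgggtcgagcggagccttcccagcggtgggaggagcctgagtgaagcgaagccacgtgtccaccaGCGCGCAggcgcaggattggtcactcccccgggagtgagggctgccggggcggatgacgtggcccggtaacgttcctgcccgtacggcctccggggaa
There were 2 matches in Slc30a1, at -43 and 30 from the start site used, 3 in Slc30a4 and 1 in Slc30a5. Promoters of the same length were at hand for 132 of the 175 members, and 49 of these, or 37.1%, held a match, beside 36.1% of the 9699 promoters of measured genes. A match was held by 9 of 13 promoters of members called lower and by 3 of 16 of members called higher. The words searched for Hhex (CAATTAA and TAATTAA) were in 3 of the 132 member promoters, 1 of them of a member called higher and 0 of members called lower, and in 2.74% of the 9699. GAGGAAG, a word of PU.1 sites, was in 19 of the 132 and 13.7% of the 9699, and AGATAA, a word of GATA sites, in 11 and 6.39%. The promoters and words were chosen after the fold changes were known, a match is no evidence of binding, and the absence of one says only that these letters are not in the window.

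Slc30a1 read 1.84, 1.86 and 1.71 in MIG and 1.39, 1.26 and 0.87 in MIG-Hhex. The groups were apart (log2 fold change -0.63 with an SE of 0.15, limma adjusted p = 0.0373), but the call was lost in all 9 leave-out runs, with adjusted p from 0.0739 to 0.132. Slc30a4 read 2.19, 3.46 and 3.65 and 1.72, 2.72 and 2.81, with WT3 lower than the other libraries in both groups, so that the groups overlapped while each pair fell (log2 fold change -0.68 with an SE of 0.11, limma adjusted p = 0.0103). Slc30a5, the partner of Slc30a6 in loading zinc enzymes of the secretory pathway, read 6.00, 5.93 and 5.93 and 5.75, 5.48 and 5.47 without overlap (log2 fold change -0.39 with an SE of 0.059, limma adjusted p = 0.0089). Slc39a6 gave means of 5.39 ± 0.09 in MIG and 4.81 ± 0.08 in MIG-Hhex (SD, n = 3), also without overlap (log2 fold change -0.58 with an SE of 0.070, limma adjusted p = 0.0044). It was the zinc carrier whose call held in all 9 runs. Mtf1 itself was higher by 0.32 (limma adjusted p = 0.0483), a call lost in all 9 leave-out runs, and the metallothionein Mt1, a main target of MTF1, gave -0.03 (SE 0.10). Both were chosen for mention after their values were seen.

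The 3 rises among metal and heme carriers were in Slc11a1, Slc48a1 and Slc41a3. Slc11a1, the metal carrier that macrophages and neutrophils place on phagosomes, read 0.31, 0.13 and -0.20 in MIG and 2.65, 1.93 and 1.44 in MIG-Hhex. The groups were far apart (log2 fold change 1.93 with an SE of 0.22, limma adjusted p = 0.00346), a change of 3.80-fold, and the adjusted p was at most 0.0224 in the leave-out runs and 0.0499 without the flow cell term. Its relative Slc11a2, the general importer of ferrous iron, gave 0.00 (SE 0.099), and Slc40a1, the iron exporter ferroportin, 0.10 (SE 0.18). Slc48a1, which returns heme from lysosomes to the cytosol and is among the 8 members of highest level, rose by 0.33 (SE 0.061, limma adjusted p = 0.0158) with overlapping groups. With the GC trend removed its adjusted p was 0.0718, and 29 exon bases overlap Hdac7, which was also called higher. Slc41a3, of a magnesium carrier family, rose by 0.55 (limma adjusted p = 0.041), and its adjusted p was 0.0873 with the GC trend removed. The neutrophil and monocyte lists, whose cells are known for Slc11a1, gave the mixed calls stated above, and their part in this result was not tested.

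The falls of greatest size were in carriers of nucleosides and organic anions. Slc28a2, the sodium-driven importer of purine nucleosides, at chr2:122426357-122461152, read 3.62, 4.05 and 3.88 in MIG and 0.07, -0.05 and 0.11 in MIG-Hhex. The MIG-Hhex libraries lay close together and far below the MIG libraries, a fall of 14.0-fold (log2 fold change -3.81 with an SE of 0.13, limma adjusted p = 0.000232). A neighbouring relative of the same family, Slc28a2b, is not among the table's rows, and no source used here says how reads shared between them were counted. The other nucleoside carriers work by facilitated diffusion. Slc29a3, of lysosomes, rose by 0.51 (SE 0.095, limma adjusted p = 0.0164) and was apart between groups, while Slc29a1, the main facilitated carrier of the surface, gave 0.15 (SE 0.061) and Slc29a2 -0.39 (SE 0.15), neither past the threshold. With the GC trend removed Slc29a2 was called lower (-0.59, limma adjusted p = 0.0391).

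Slco3a1, an organic anion carrier known to take up prostaglandins, at chr7:74275418-74554780, read 3.79, 3.84 and 4.00 in MIG and 1.30, 1.34 and 1.70 in MIG-Hhex. No library of one group came near the other (log2 fold change -2.43 with an SE of 0.12, limma adjusted p = 0.000528), the fall was 5.39-fold, and the 3 other members of its family did not pass, with Slco4a1 at 0.03 (SE 0.084). In the same class Slc22a18, an organic cation carrier relative from an imprinted cluster, rose from -0.15, -1.05 and -2.18 in MIG to 0.90, 0.63 and 0.09 in MIG-Hhex (log2 fold change 1.67 with an SE of 0.38, limma adjusted p = 0.0303), with a wide spread in MIG but no overlap. Slc18a2, which loads serotonin, histamine and other monoamines into granules, rose by 0.44 (SE 0.11, limma adjusted p = 0.0401), and Slc6a13, a carrier of GABA and taurine, by 0.53 (SE 0.14, limma adjusted p = 0.0444). Slc18a2 is a gene of mast cells and basophils, of whose markers Cpa3, Mcpt8, Cd200r3 and Ms4a2 were called lower and Hdc higher, and their part was not tested. Slc6a12, 4852 bases from Slc6a13, gave 1.47 (SE 0.47, limma adjusted p = 0.0763, and 0.0179 with the block).

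**Figure D4:**
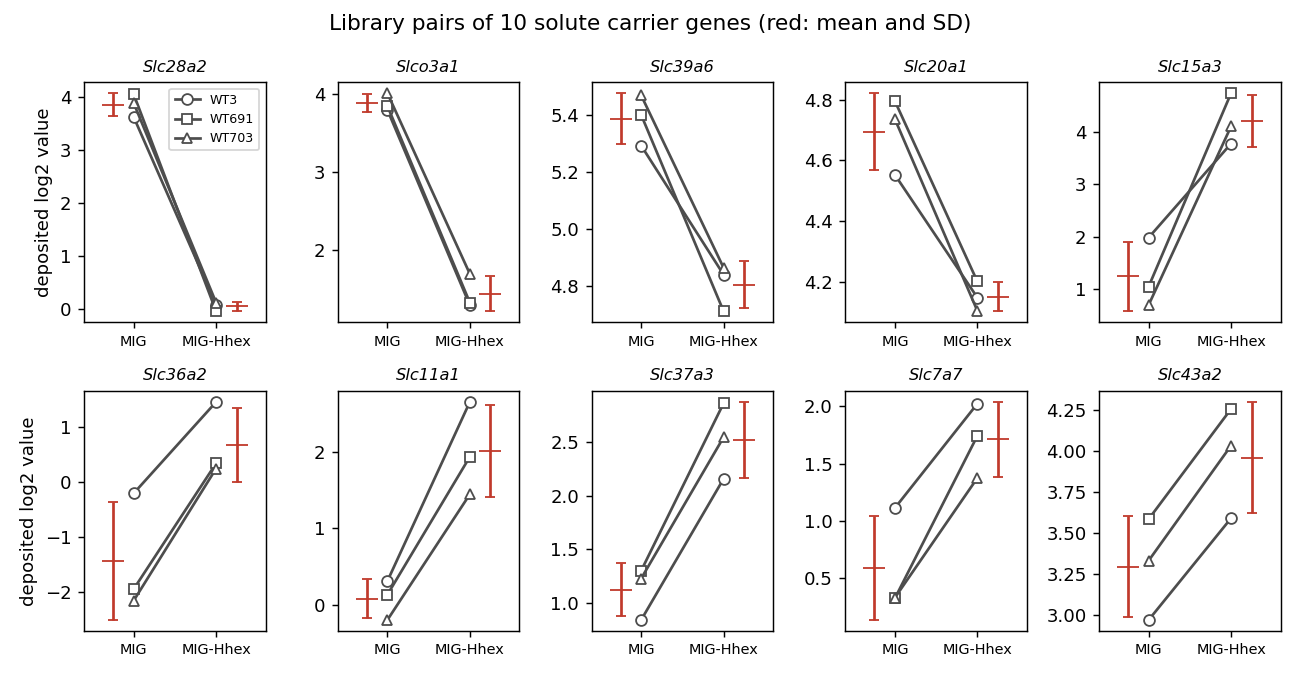
Deposited log2 values (vertical axis, its range set for each gene) of 10 members in MIG and MIG-Hhex, with a line joining the libraries of the same name and red marks for the mean and SD of each group (n = 3). All lines fall for Slc28a2, Slco3a1, Slc39a6 and Slc20a1 and rise for the other 6, and for Slc36a2 and Slc7a7 the WT3 line runs above the others.

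Carriers of inorganic ions were mostly close to 0. Slc4a1, the anion exchanger of the red cell membrane, gave the highest fold change of all members (log2 fold change 3.60 with an SE of 0.80, limma adjusted p = 0.0276), from -6.23, -5.58 and -6.35 in MIG to -1.74, -3.67 and -1.95 in MIG-Hhex. The MIG values lie at the bottom of the scale. After log2 transcript length was added to each value, at most 34 of the 11740 genes with a known length lay as low or lower in MIG. No MIG-Hhex library came above -1.74 on the deposited scale. With 1 added to the linear value the change was 0.25 (limma adjusted p = 0.106), so the fold rests on how the lowest values were set. Of the 12 erythroid markers, the 4 called higher and the 2 called lower were named with Slc6a9, and the part of red cell precursors in this value was not tested. Slc20a1, the phosphate importer that also serves as a receptor for some retroviruses, read 4.55, 4.79 and 4.74 in MIG and 4.15, 4.20 and 4.11 in MIG-Hhex, with no overlap (log2 fold change -0.54 with an SE of 0.070, limma adjusted p = 0.00523). The call held in 8 of 9 leave-out runs, with an adjusted p of 0.0501 in the other. Slc8b1, the sodium and calcium exchanger of mitochondria, rose by 0.49 (limma adjusted p = 0.0381), and Slc26a2, a sulfate carrier, by 0.44 (limma adjusted p = 0.0411), both with overlapping groups. Slc26a11, a further sulfate carrier relative, rose by 1.20 but lost its call in all 9 runs (limma adjusted p = 0.0498). Of the 5 measured members of family 12, which couple chloride to potassium or sodium, 0 were called (range of log2 fold change -0.24 to 0.17), although Slc12a4 was called lower with the GC trend removed (limma adjusted p = 0.0335).

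Among carriers of carboxylates, vitamins and lipids, Slc27a3, an acyl-CoA synthetase of the fatty acid transport family, fell from -0.11, -1.01 and -1.83 in MIG to -3.13, -2.93 and -3.64 in MIG-Hhex. The groups did not overlap, but the 3 MIG libraries spread widely (log2 fold change -2.25 with an SE of 0.46, limma adjusted p = 0.0219), and the call held in 2 of 9 leave-out runs. Genes were also ranked after log2 transcript length was added to each value. In the MIG-Hhex libraries at most 98 of the 11740 genes with a known length then lay as low or lower. With 1 added to the linear value the change of Slc27a3 was -0.48 (limma adjusted p = 0.0426). Its relative Slc27a4 rose by 0.34 (limma adjusted p = 0.0427), with an adjusted p of 0.257 once the GC trend was removed. Both measured vitamin carriers driven by sodium fell, Slc23a2, which takes up vitamin C (log2 fold change -0.43 with an SE of 0.093, limma adjusted p = 0.0264) and Slc5a6, which takes up biotin and pantothenate (log2 fold change -0.41 with an SE of 0.099, limma adjusted p = 0.0361). Each lost its call in all 9 leave-out runs, and 145 exon bases of Slc5a6 overlap Atraid, which did not pass. Of the 6 members of the monocarboxylate family 16 in the rule, 0 were called, although Slc16a10, an aromatic amino acid carrier, was called higher with the block (limma adjusted p = 0.0427) and with the GC trend removed (0.0359).

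In the sugar class, Slc37a3, a phosphate-linked carrier relative of the endoplasmic reticulum and lysosomes, read 0.84, 1.30 and 1.23 in MIG and 2.16, 2.86 and 2.54 in MIG-Hhex. The rise was of like size in each pair and the groups were apart (log2 fold change 1.40 with an SE of 0.13, limma adjusted p = 0.00193). Slc37a4, which brings glucose 6-phosphate into the endoplasmic reticulum for release of free glucose, fell by 0.28 (SE 0.074, limma adjusted p = 0.0444), and Slc45a3, a sugar carrier relative, gave -0.94 with overlapping groups (limma adjusted p = 0.0487). Both calls were lost in all 9 leave-out runs. None of the 4 members of family 2 in this class, which carry glucose and related molecules, passed, with Slc2a6 at -0.14 (SE 0.29) and Slc2a8 at 0.45 (SE 0.19).

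Carriers of nucleotide sugars, which supply the Golgi with building blocks for glycans, gave 2 calls in 23 members, or 8.70%, and 3 more with the block. Slc35d3, an orphan member known for platelet dense granules, read 0.43, 1.15 and 1.86 in MIG and -0.27, 0.28 and 0.66 in MIG-Hhex, falling in each pair although the groups overlapped (log2 fold change -0.92 with an SE of 0.24, limma adjusted p = 0.0434). Of the 11 megakaryocyte markers 4 were higher and 1 lower, and their part was not tested. Slc35c2, linked to fucose supply, rose by 0.21 (SE 0.058, limma adjusted p = 0.04998), and its change was 0.005 with the GC trend removed. Slc35b1, which brings ATP into the endoplasmic reticulum, and Slc35a4 stood among the 8 members of highest level and gave -0.25 (limma adjusted p = 0.0627) and -0.10 (limma adjusted p = 0.278). Slc35b1 was called lower with the block (limma adjusted p = 0.0282) and with the GC trend removed (0.0367), and Slc35a4 was called lower in the latter (-0.26, limma adjusted p = 0.0226).

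Of the 5 members that bear the name but are not carriers themselves, Slc9a3r2, a scaffold that ties the sodium and proton exchanger to the cytoskeleton, read 0.92, 0.30 and 0.22 in MIG and 1.94, 1.49 and 1.70 in MIG-Hhex. The groups were apart (log2 fold change 1.23 with an SE of 0.15, limma adjusted p = 0.0044), and the call held in all 9 leave-out runs. Its relative Slc9a3r1 stood far higher in level (means 5.95 ± 0.31 and 6.15 ± 0.20, SD, n = 3) and did not pass (log2 fold change 0.21, limma adjusted p = 0.0595, and 0.0489 with the block), and its log2 fold change was -0.005 with the GC trend removed. Slc4a1ap, an adaptor named for its binding to the anion exchanger, gave -0.26 (limma adjusted p = 0.0287), and Slc7a6os, a gene on the opposite strand beside Slc7a6, -0.30 (limma adjusted p = 0.047).

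Genes that work with the carriers were read from 6 lists. The counts stand beside 9.44% of all genes called higher and 8.52% called lower, and no list was tested against these shares. Of the sodium pump, which sets the gradient for sodium-driven carriers, the beta subunit Atp1b1 read 1.51, 0.93 and 0.42 in MIG and 0.41, -1.77 and -1.60 in MIG-Hhex. The groups almost met at WT703 of MIG and WT3 of MIG-Hhex but did not overlap (log2 fold change -1.94 with an SE of 0.32, limma adjusted p = 0.011). Of 13 chaperones and kinases that control carriers 1 was higher and 4 lower, among them the ubiquitin ligase Nedd4, which removes carriers from the surface (log2 fold change -0.62 with an SE of 0.051, limma adjusted p = 0.00151), and the kinase Wnk2, which was low in MIG (log2 fold change 3.80 with an SE of 0.41, limma adjusted p = 0.00301). Of 21 genes of nucleoside salvage 4 were higher, including the purine nucleoside phosphorylases Pnp (0.35, limma adjusted p = 0.0106) and Pnp2 (0.49, limma adjusted p = 0.00304), and 2 lower. Of 23 genes of iron, zinc and copper handling 2 were higher and 3 lower, with the iron-regulating HFE protein gene Hfe at -1.91 (SE 0.22, limma adjusted p = 0.00348) and the transferrin receptor Tfr2 at 0.99 (SE 0.15, limma adjusted p = 0.00888). Of 21 genes through which mTORC1 senses amino acids 2 were higher, the lysosomal regulator Tfeb (0.52, limma adjusted p = 0.00802) and the leucine sensor Sesn2 (0.57, limma adjusted p = 0.0357), and 0 lower. The 46 solute carriers outside the rule gave 7 higher and 8 lower, the largest of the latter being the mitochondrial Slc25a24 (-2.02, limma adjusted p = 0.00118).

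Sequence composition moved with the direction of the calls. The median GC content of the transcripts was 55.1% for members called higher, 50.0% for those called lower, 51.2% for those not called and 50.1% for all genes with a known transcript. Across all genes the log2 fold change followed GC content with a Spearman rho of 0.30, and across the members with 0.28. Genes are not independent replicates, and no p is given. When the trend with GC was removed from each library, 31 of the 40 calls were kept, all 15 lower calls among them. No called member changed sign. The 9 lost were all higher calls: Slc35c2, Slc38a10, Slc15a4, Slc48a1, Slc27a4, Slc8b1, Slc6a13, Slc41a3 and Slc26a11. Over all genes 1627 of 2184 calls were kept, while 286 higher and 271 lower calls were not. Called genes without a GC value are counted there as not kept. All genes gave 1200 higher and 1363 lower in that setting, and the members 20 higher and 24 lower, so that lower calls outnumbered higher ones. Of 134 members not called at first, 13 were called in that setting, 4 higher and 9 lower, and 29 changed sign. Of the 10 amino acid and peptide carriers called higher, 8 were kept.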

How the data were processed

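The authors deposited 1 table of log2 expression values, 12161 genes by 6 libraries. Subread, featureCounts, limma, edgeR and the build mm10 are named in the submitters' processing notes, without roles or versions. Scaling of the log2 values, depth per library and any use of strand: not given in the sources used here. No counting interval is therefore given. Adding log2 transcript length narrowed the spread of a library from an SD of 2.58 to 2.69 to one of 2.51 to 2.53, as values per length would do. 60 rows without a symbol stayed in the fit.

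The values were fitted with limma 3.58.1 in R 4.3.3, with vector and flow cell as terms and a mean-variance trend. Tests were two-sided, with Benjamini-Hochberg adjustment over all 12161 genes. They measure the spread between these libraries. The code was tested on simulated data. Samples were grouped by the vector label. Libraries of the same name deviated together from their group means (r = 0.74 for WT3, 0.58 for WT691 and 0.66 for WT703), so the name was also used as a block. GC content and length came from GENCODE M21 transcripts (11740 genes), and gene and promoter positions from RefSeq GRCm38.p6.

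The members, classes and lists were chosen with earlier results of these data known. Named members are the 10 highest rises and 10 largest falls past the threshold, up to 4 per class by p, the 8 of highest mean, and 2 genes per list of related genes. Others named were chosen after their values were seen. Some results of the related and marker lists are not reported here. A pseudogene, Slc2a4rg-ps, was moved to the members that are not carriers once the table was open. The alternatives were the block, no flow cell term, 1 flow cell, a mean above 0, 1 added to linear values, median centring, quantile scaling, no trend, and leaving out libraries. Removal of the GC trend was added after seeing the data.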

Additional observations from a re-analysis of the deposited data

How the results depend on the processing

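With the replicate name as a block (the paired fit), 33 members were called higher and 20 lower, the 40 calls among them, and all genes gave 1506 and 1473. The block lost none of these calls. Without the flow cell term 3 members were higher and 3 lower, and all genes gave 119 and 98. In the flow cell of 4 libraries alone, which is the run without the pair WT3, the members gave 13 and 7 and all genes 698 and 519. Without the mean-variance trend 17 members were higher and 9 lower, and all genes gave 791 higher and 638 lower. Of the 40 calls, 24 were kept in that setting and 16 were lost. Leaving out libraries in turn gave 6 to 20 members higher and 3 to 9 lower, and 355 to 835 and 270 to 634 of all genes. With the GC trend removed, 24 members were lower, and the sign of 29 of 134 uncalled members turned, with Slc7a5 (-0.00221) and Slc38a2 (0.0297) among them. The cause of these shifts was not tested. Of the 40 calls, 37 were kept with 1 added, 38 with median centring, 38 with quantile scaling, and 33 of 35 with a mean above 0. Depth is unknown, so the precision of low values such as those of Slc4a1 cannot be given.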
